A study of Mus musculus with 4 samples.

Results

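The end of a culture that turns mouse bone marrow into osteoclasts was compared with fresh marrow, gene by gene, on 1 array of day 7 and 1 array of day 1. All probe sets other than the control probe sets of the array were taken. Signals under 32.4 units, the median of these probe sets over all 4 arrays of the series and called the floor below, were raised to it, and the difference of the log2 signals was read for each gene from 1 probe set, the one with the highest mean signal over the 4 arrays. Of 18193 genes with a probe set of 1 symbol, 11967 were above the floor on day 1 or on day 7, and these are the genes counted below. Of these, 10182 were above the floor on both arrays, 1014 on day 1 only and 771 on day 7 only. The other 6226 genes were above it on neither array.

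Marrow came from female C57Bl/6J mice aged 12 weeks. The day 1 array holds marrow on the day it was taken, with 0 days of differentiation, and the labels name neither an added factor nor a sorting step for it. For day 7 the cells had been kept for 6 days in α-MEM with 10% FBS and 10 nM vitamin D3, and M-CSF (20 ng/ml) and RANKL (40 ng/ml) had been added after the first 3 days. The arrays of day 4 (3 days with vitamin D3 and no M-CSF or RANKL) and of day 5 (4 days, with all of the factors) are used only to show levels in between. Each day is 1 array, the labels do not say whether the days share a culture or a mouse, and there is no test, SD or p-value: every value describes these arrays. The effects of M-CSF, RANKL, vitamin D3 and time in culture cannot be told apart in this comparison. The labels give the cell type of the day 1 sample as primary osteoclast, but the osteoclast genes Dcstamp, Ocstamp, Oscar and Calcr were below the floor there, at 24.7, 16.5, 13.8 and 0.732 units, while the other 22 measured genes of the osteoclast list were above it, Acp5 at 2604, Mmp9 at 4173 and Ctsk at 568 units among them. Genes of granulocytes, red cells and B cells were high, and since the labels give the sample as marrow on the day of extraction, it is called fresh marrow here.

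Osteoclasts are large cells with many nuclei that dissolve bone mineral with acid and digest its collagen matrix with proteases. They arise from the monocyte and macrophage lineage when M-CSF acts through its receptor, the product of Csf1r, and RANKL through RANK, the product of Tnfrsf11a, and NFATc1 is the transcription factor that drives their later genes. Fresh marrow holds all blood lineages beside a few stromal cells, and vitamin D3 makes stromal cells produce RANKL. In bulk samples such as these, fewer cells of a type and less RNA per cell cannot be told apart.

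A signal is the deposited linear intensity of a probe set and is compared only with the same probe set on another array. On day 7 46.6% of the probe sets were above the floor, against 52.6% on day 1, and the array medians over the probe sets were 26.2 and 38.3 units. The median log2 difference over genes with both arrays above the floor was 0.03, and it was 0.16 after scaling to equal medians and 0.14 after quantile normalization. The sign of a difference no larger than this shift is not settled. The 20 spiked control probe sets above the floor on every array differed between the arrays with an SD of 0.26 on the log2 scale, and 3′ to 5′ signal ratios of the Gapdh controls were 0.823 on day 1 and 0.785 on day 7. Different probe sets of a gene spread with a pooled SD of 0.53 over 4605 genes. Of 1612 further probe sets of genes past 2-fold, 92.3% had the same direction and 60.3% were also past 2-fold.

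On day 7, 1516 genes were at least 2-fold higher than in fresh marrow (12.7% of those counted) and 1939 were at least 2-fold lower (16.2%). The other 8512 genes (71.1%) were within 2-fold. Large differences were more often losses: a difference of 8-fold or more was reached by 118 higher and 310 lower genes, 16-fold by 40 and 151, and 64-fold by 4 and 26. The share of higher genes among those past 2-fold was 43.9%, and it was 53.1% with median scaling (1891 higher and 1673 lower) and 56.2% with quantile normalization (2000 and 1559). Of the 1516 higher genes, 728 had their highest signal on day 5 and 716 on day 7. Of the 1939 lower genes, 1505 had their lowest signal on day 7. The lists of other marrow cell types moved with the comparison: the summed signals on day 1 and day 7 were 181900 and 22850 units for neutrophil genes, 59600 and 9988 for red cell genes and 42010 and 6733 for B cell genes. Since each array is scaled as a whole, the part of these losses in the gains of other genes was not tested. The genes just past the threshold had log2 differences of 1.001 to 1.004 and -1.002 to -1.0, and those just short of it 0.999 and -0.999 to -0.996.

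**Figure D1:**
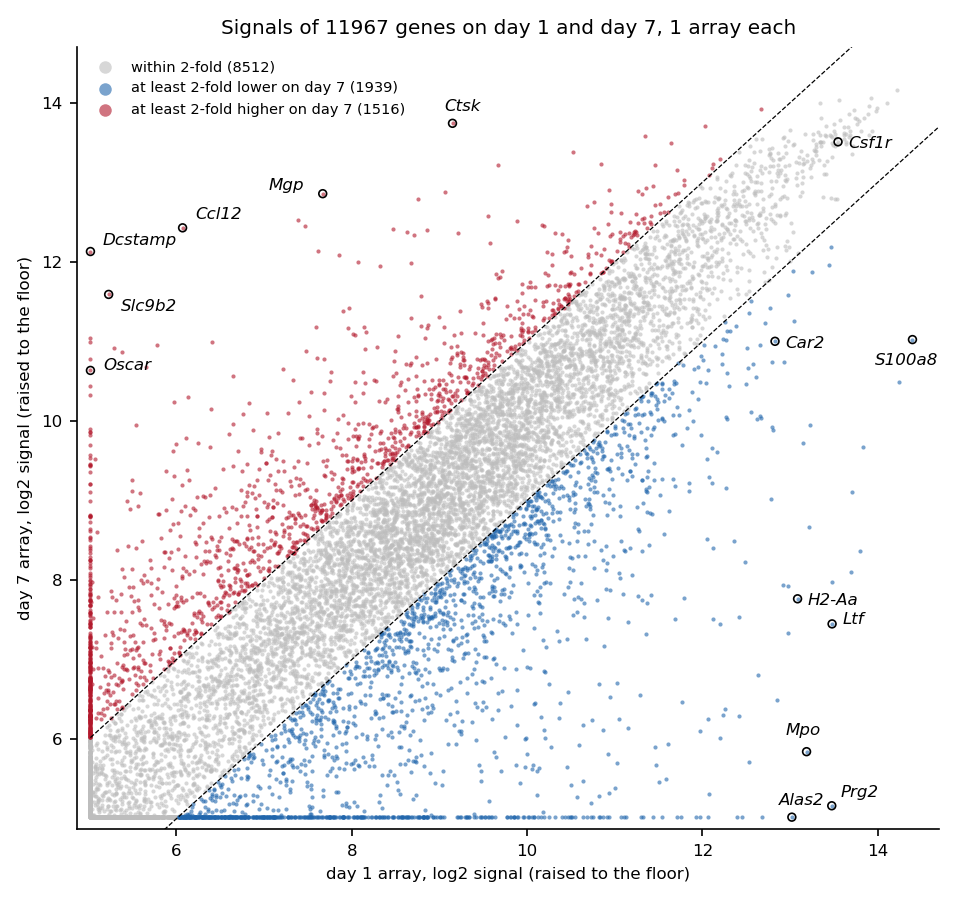
Log2 signal of 11967 genes on the day 1 array (horizontal) and the day 7 array (vertical), 1 point a gene, with signals under the floor of 32.4 units raised to it. Red points (1516) are at least 2-fold higher on day 7 and blue points (1939) at least 2-fold lower, beyond the dashed lines, and the labelled genes show the osteoclast genes Ctsk, Dcstamp and Oscar far above the diagonal and granulocyte and red cell genes such as Mpo, Prg2 and Alas2 far below it.

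Where both arrays were above the floor, the largest gain was that of Slc9b2, a sodium-proton exchanger of osteoclasts, at 37.5, 463, 1550 and 3083 units on days 1, 4, 5 and 7, an 82.3-fold difference between day 7 and day 1. Ccl12, a chemokine that attracts monocytes, followed with 67.2, 156, 3098 and 5507 units and 81.9-fold. Most of the Ccl12 gain lay between day 4 and day 5, where M-CSF and RANKL were present for the first time. Cpe, a carboxypeptidase that trims peptide hormones, was 49.1-fold higher, Plau, the urokinase plasminogen activator, 44.7-fold, and Mgp, a matrix protein that holds back mineralisation, 36.4-fold. Scin, a calcium-dependent actin-severing protein, went from 54.7 to 1978 units (36.2-fold) and Bdh1, a mitochondrial enzyme of ketone metabolism, from 50.2 to 1635 units (32.6-fold). Further members of the top group were Ch25h (21.2-fold), which makes 25-hydroxycholesterol, Akr1b8 (16.4-fold), an aldo-keto reductase, and Dab2, an endocytic adaptor (log2 difference 3.81).

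For genes that fresh marrow did not show above the floor, the difference is a lower bound. Dcstamp, whose product osteoclast precursors need in order to fuse, was at 24.7, 730.2, 3266 and 4480 units, at least 138-fold higher on day 7. Ocstamp, a related fusion gene, was at 16.5, 419, 1425 and 2108 units, at least 65.0-fold. Both were already above the floor on day 4, before RANKL was added, and had their highest signals on day 7. Mt3, a metallothionein, was at least 62.9-fold higher, Ogn, a small leucine-rich proteoglycan of matrix, at least 54.2-fold, Islr, a stromal cell protein, at least 42.8-fold, and Gsta2, a glutathione transferase, at least 39.6-fold.

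The osteoclast list was higher as a group. Its 26 measured genes included 20 past 2-fold upward and a single lower one, and their median log2 difference was 1.74, against 0.006 over all genes counted. In this and every other list median, genes above the floor on 1 array stand at their bound. The summed signal of the list was 27260, 50840, 77150 and 86220 units on days 1, 4, 5 and 7, and 19 of the 26 had their highest signal on day 7. Ctsk, cathepsin K, the protease that digests bone collagen, was at 568, 7934, 12600 and 13690 units, 24.1-fold higher on day 7. Acp5, the tartrate-resistant acid phosphatase used to stain osteoclasts, was at 2604, 6200, 10670 and 12210 units (4.69-fold), and Mmp9, a gelatinase that neutrophils also hold, at 4173, 7198, 12280 and 13350 units (3.20-fold). In both genes fresh marrow already had a signal far above the floor, while Ctsk gained most of its signal by day 4. Oscar, a collagen receptor of osteoclasts, went from below the floor to 1590 units (at least 49.0-fold). Calcr, the calcitonin receptor and a late osteoclast gene, was at 0.732, 16.5, 95.1 and 398 units, so it first passed the floor on day 5 and was at least 12.3-fold higher on day 7.

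Other osteoclast genes ranged from higher to lower, also among those of acid secretion. Atp6v0d2, a proton pump subunit of osteoclasts, was 13.3-fold higher (397 to 5301 units), Ckb, a creatine kinase, 7.25-fold, and Src, the kinase needed for the ruffled border through which acid is released, 4.43-fold. The chloride-bicarbonate exchanger Slc4a2 was 3.02-fold higher. Tcirg1, a pump subunit often mutated in osteopetrosis, had a log2 difference of 0.43, and Ostm1, the partner of the chloride channel Clcn7, 0.35. Clcn7 itself was at 704 and 1739 units on days 1 and 7 (2.47-fold higher), but its other probe sets differed by -0.45 to 0.73. Car2, the carbonic anhydrase that supplies protons in osteoclasts and is also abundant in red cells, was at 7267, 656, 2107 and 2049 units and so 3.55-fold lower on day 7 than in fresh marrow, with its lowest signal on day 4. Itgb3, the β3 integrin of osteoclasts and platelets, had a log2 difference of -0.92, within 2-fold.

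Among genes that relay the signals for osteoclast formation, a few were higher and most were within 2-fold. Tnfrsf11a (RANK) went from 147 to 415 units (2.82-fold higher). Csf1r, the M-CSF receptor, stood at 11960, 11070, 11750 and 11650 units on the 4 arrays, a log2 difference of -0.04. Nfatc1 went from 589 to 1814 units (3.08-fold higher), and its other probe sets, which can match other transcripts of the gene, differed by -0.33 to 2.94. Tnfsf11, the gene of RANKL itself, was at 82.8, 593, 836 and 207 units, a log2 difference of 1.32 on day 7, but below its signals on days 4 and 5. The other probe set of Tnfsf11 differed by 0.48, within 2-fold. Tnfrsf11b, the decoy receptor osteoprotegerin, was below the floor on days 1, 4 and 5 and at 36.9 units on day 7. Of 36 genes of RANK and M-CSF signalling, 5 were higher and 6 lower, shares near those over all genes (12.7% and 16.2%), with a median of -0.13 that turned to 0.01 with median scaling. The higher ones were Src, Nfatc1, Tnfrsf11a, Tnfsf11 and the AP-1 gene Fosl2 (2.06-fold). Among the lower ones were the kinase gene Syk (3.00-fold lower), the phospholipase gene Plcg2 (2.95-fold) and the ubiquitin ligase gene Cbl (2.90-fold), all of which other blood cells use too.

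The fusion genes were higher in part. Among 17 measured, 8 were higher, 1 was lower and the median was 0.80. Over the 14 above the floor on both arrays the median was 0.13. Dcstamp, Ocstamp and Atp6v0d2 are also members of the osteoclast list. Beside Dcstamp, Ocstamp and Atp6v0d2 the higher ones held the membrane proteases Adam12 (3.04-fold) and Adam8 (2.33-fold), the integrin subunit gene Itgav (2.06-fold) and the tetraspanin gene Cd81 (2.04-fold). Tspan13, another tetraspanin gene, was 8.27-fold lower, and Cd9 and Cd47, surface proteins linked to macrophage fusion, differed by 0.24 and -0.30. Of 26 genes whose loss is tied to osteopetrosis, the disease of failed bone resorption, 8 were higher and 3 lower, with a median of 0.23. Snx10, a sorting nexin of osteoclast vesicles, was at 1399, 2319, 3753 and 4673 units (3.34-fold higher), but the mean over all its probe sets gave a log2 difference of -0.42. Rab27a, a small GTPase of lysosome-related granules that granulocytes also use, was 33.8-fold lower and Lrrk1, a kinase, 2.30-fold.

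Of 33 transcription factors of the myeloid and osteoclast lines, 5 were higher and 10 lower, with a median of -0.22. Jdp2, an AP-1 family gene, was 2.99-fold higher, Prdm1 (Blimp1), which represses the inhibitors of osteoclast formation, 2.11-fold, and Tfec, a relative of Mitf, 2.02-fold. Gfi1, a factor of neutrophil precursors, was at 926, 101, 22.8 and 11.1 units (at least 28.6-fold lower), and Irf4, a factor of lymphoid and dendritic cells, was at least 21.1-fold lower. Mitf, a regulator of late osteoclast genes, and Fos and Spi1, which osteoclasts cannot form without, differed by 0.18, 0.22 and 0.47.

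Genes that restrain osteoclast formation were more often lower than higher: 8 of 20 lower, 1 higher, median -0.31. Irf8, a factor that holds precursors back from osteoclast fate, was at 2440, 1915, 926 and 770.4 units (3.17-fold lower). The lower group also held Id1 (4.91-fold) and Id2 (2.99-fold), inhibitors of helix-loop-helix factors, Bcl6 (2.31-fold), a repressor, and Pirb (5.26-fold), an inhibitory receptor. Rbpj, the Notch pathway factor, had a log2 difference of 0.80. The 1 higher gene was Rcan2, an inhibitor of calcineurin, at least 2.90-fold. Of 19 genes in the list of ITAM receptors and adaptors, some of which co-stimulate RANK, 8 were lower and 2 higher (Oscar and Trem2). The list also holds inhibitory receptors, and Pirb is among its lower genes as well. The adaptors themselves stayed close to their fresh marrow signals, Tyrobp (DAP12) at a log2 difference of -0.17 and Fcer1g (FcRγ) at -0.06, and the lower ones included the neutrophil and monocyte receptors Trem3 (39.5-fold lower) and Trem1 (14.6-fold).

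**Figure D2:**
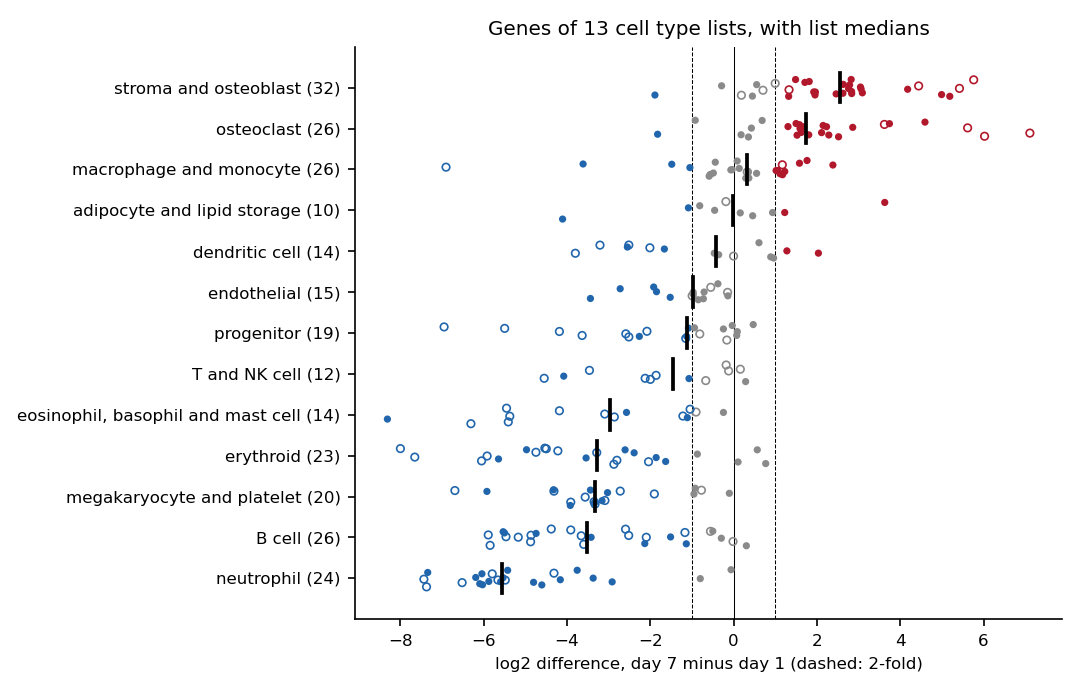
Log2 difference of day 7 minus day 1 (horizontal) for the genes of 13 cell type lists, 1 point a gene, with the number of measured genes after each list name; red is at least 2-fold higher, blue at least 2-fold lower, grey within 2-fold, open points are bounds, and the black bar is the list median. The osteoclast (median 1.74) and stromal (2.54) lists lie to the right, the macrophage list (0.31) near 0, and the neutrophil (-5.56), B cell (-3.51), platelet (-3.33) and red cell (-3.29) lists to the left.

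The promoters of genes from both ends of the comparison are shown next, since they carry some of the same short elements although the genes differed in opposite directions. For each gene the 250 bases before the first listed start are given from RefSeq on GRCm38.p6, 5′ to 3′ on the strand of the gene. Capitals mark matches, on either strand, to the motif GAGGAAG, a type bound by the myeloid factor PU.1, to AGATAA, the GATA factor type, to the CACCC type CCACACCC and to the AP-1 type TGANTCA. A match is a description of letters, not a binding site. Ctsk, Oscar and Mmp12 are shown for genes higher on day 7 with a PU.1-type match, and Acp5 as one with a GATA and CACCC match. Mpo and Prtn3, genes of neutrophil granules, and Alas2 and Trim10, genes of red cell precursors, are shown for genes lower on day 7.
Ctsk (chr3:95498960-95499209, plus strand): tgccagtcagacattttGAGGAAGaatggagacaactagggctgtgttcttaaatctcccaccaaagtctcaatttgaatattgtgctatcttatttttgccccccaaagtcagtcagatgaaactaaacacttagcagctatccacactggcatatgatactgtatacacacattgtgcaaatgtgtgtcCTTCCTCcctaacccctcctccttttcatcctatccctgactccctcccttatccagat
Oscar (chr7:3616158-3616407, minus strand): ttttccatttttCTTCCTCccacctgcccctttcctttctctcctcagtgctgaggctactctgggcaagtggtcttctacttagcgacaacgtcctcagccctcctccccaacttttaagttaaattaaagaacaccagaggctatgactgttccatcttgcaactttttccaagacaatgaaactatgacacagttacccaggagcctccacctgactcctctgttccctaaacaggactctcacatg
Mmp12 (chr9:7344147-7344396, plus strand): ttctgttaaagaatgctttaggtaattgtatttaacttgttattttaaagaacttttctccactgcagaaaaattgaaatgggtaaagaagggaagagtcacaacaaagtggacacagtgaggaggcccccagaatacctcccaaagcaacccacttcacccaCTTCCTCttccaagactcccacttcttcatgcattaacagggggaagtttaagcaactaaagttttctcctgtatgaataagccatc
Acp5 (chr9:22135747-22135996, minus strand): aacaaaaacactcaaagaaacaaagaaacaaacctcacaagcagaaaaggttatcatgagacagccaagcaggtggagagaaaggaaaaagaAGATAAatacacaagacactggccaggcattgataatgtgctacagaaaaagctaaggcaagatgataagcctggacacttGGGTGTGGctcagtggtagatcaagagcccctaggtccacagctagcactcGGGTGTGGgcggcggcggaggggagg
Mpo (chr11:87793534-87793783, plus strand): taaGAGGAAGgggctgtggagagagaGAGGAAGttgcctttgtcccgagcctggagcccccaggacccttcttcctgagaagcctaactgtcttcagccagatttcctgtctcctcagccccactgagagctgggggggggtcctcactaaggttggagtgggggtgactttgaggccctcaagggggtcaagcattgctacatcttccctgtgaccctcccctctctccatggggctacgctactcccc
Prtn3 (chr10:79879417-79879666, plus strand): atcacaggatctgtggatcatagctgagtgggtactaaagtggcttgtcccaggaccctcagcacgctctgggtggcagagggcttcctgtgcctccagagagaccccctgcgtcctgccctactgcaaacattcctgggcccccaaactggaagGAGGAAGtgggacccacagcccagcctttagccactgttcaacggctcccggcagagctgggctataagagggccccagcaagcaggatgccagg
Alas2 (chrX:150547167-150547416, plus strand): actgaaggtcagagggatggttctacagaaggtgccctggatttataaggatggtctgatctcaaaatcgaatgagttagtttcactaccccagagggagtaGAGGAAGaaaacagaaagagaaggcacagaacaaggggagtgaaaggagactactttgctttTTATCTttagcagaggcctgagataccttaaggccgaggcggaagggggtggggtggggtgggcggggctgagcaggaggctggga
Trim10 (chr17:36869324-36869573, plus strand): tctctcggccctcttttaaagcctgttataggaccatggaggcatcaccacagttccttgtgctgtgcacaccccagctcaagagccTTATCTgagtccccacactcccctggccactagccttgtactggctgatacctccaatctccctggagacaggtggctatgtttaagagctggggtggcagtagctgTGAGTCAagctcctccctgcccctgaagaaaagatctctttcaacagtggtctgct
Ctsk held the PU.1-type letters at positions -233 to -227 and -59 to -53 from the start, Mpo at -247 to -241 and -224 to -218, and Alas2 at -148 to -142 beside a GATA match at -86 to -81.

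Counted over the 300 bases around the start (250 before and 50 after), the PU.1-type letters were in 18.3% of 82 promoters of genes at least 8-fold higher and in 19.7% of 244 promoters of genes at least 8-fold lower, against 13.3% of the promoters of genes within 2-fold and 13.5% of all 27025 promoters in the table. The AP-1 type was in 12.2% and 11.1% of the same groups at least 8-fold higher and lower, 4.48% of those within 2-fold and 7.93% of all. AGATAA was in 7.32% of those at least 8-fold higher and 13.5% of those at least 8-fold lower, against 6.49% within 2-fold and 11.4% of all. The ETS type CCGGAAG went the other way, in 6.1% and 4.1% of the promoters at least 8-fold higher and lower, 20.8% of those within 2-fold and 9.12% of all. Over all genes past 2-fold, with 1188 promoters of higher and 1551 of lower genes, the AP-1 and ETS shares were less extreme. There the PU.1 type was in 13.1% and 16.3% and the AP-1 type in 5.98% and 7.16%. AGATAA was in 4.55% and 8.45% of them and the ETS type in 12.6% and 10.8%. For higher genes the AGATAA share was thus below that within 2-fold (6.49%), and the PU.1-type share was near it (13.3%). A CpG ratio (observed over expected from base composition) of at least 0.6 was found in 75% of the promoters of genes within 2-fold, in 25.6% of those at least 8-fold higher and in 29.5% of those at least 8-fold lower, against 36.5% of all promoters in the table. CpG-rich promoters were thus less frequent among the genes that differed most, in both directions.

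**Figure D3:**
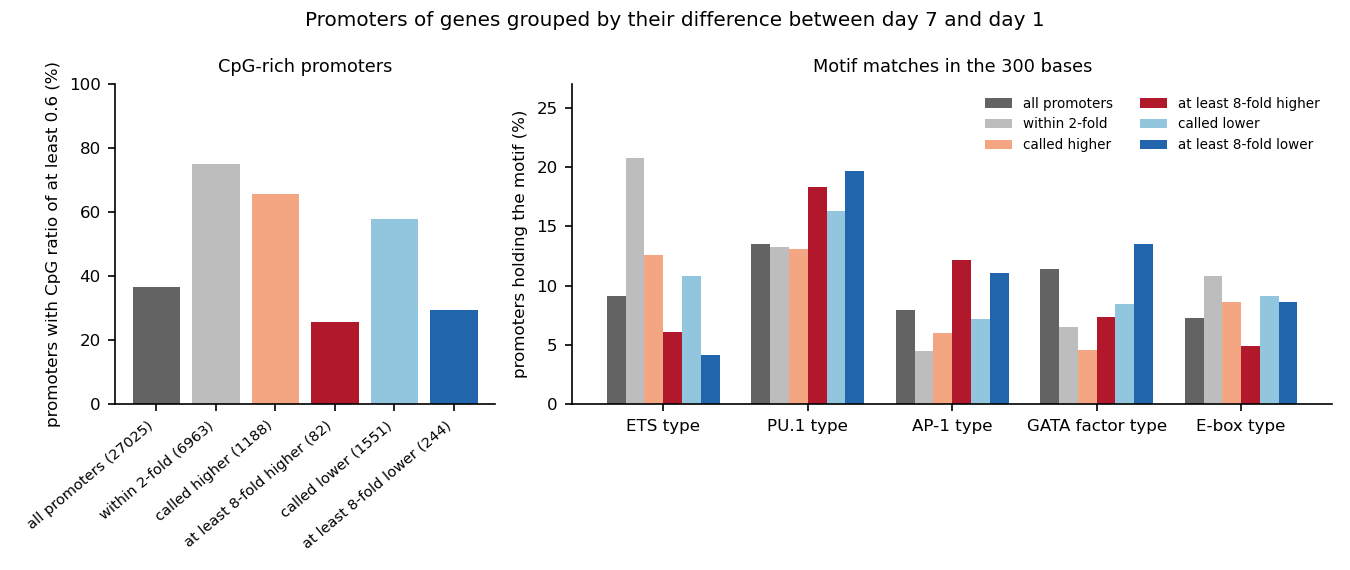
Left, percent of promoters with a CpG ratio of at least 0.6 in 6 groups of genes, with the number of promoters in brackets; right, percent of promoters that hold a match to each of 5 motif types. CpG-rich promoters make up 75% of the genes within 2-fold but 25.6% and 29.5% of those at least 8-fold higher and lower, and the ETS type is less frequent at both extremes than within 2-fold while the AP-1 type is more frequent at both extremes.

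Genes of granulocytes were the most reduced. Of 24 measured neutrophil genes, 22 were lower, none was higher, and the median log2 difference was -5.56; the summed signal of the list was 181900, 99710, 63010 and 22850 units on days 1, 4, 5 and 7. Mpo, the myeloperoxidase of primary granules, was at 9325, 1418, 293 and 57.4 units, 162-fold lower on day 7. Ltf, lactoferrin of secondary granules, was at 11410, 5102, 1705 and 175 units (65.3-fold lower), and S100a8, the calcium-binding protein that fills the neutrophil cytosol, at 21540, 17460, 12460 and 2080 units (10.4-fold). Mpo had lost most of its signal by day 4, whereas the largest drop of S100a8 lay between day 5 and day 7. Cd177, a surface protein of neutrophils, was at least 173-fold lower and Ctsg, cathepsin G, at least 166-fold. The members within 2-fold were Anxa1, an annexin that macrophages also express (log2 difference -0.06), and Hp, haptoglobin (-0.80).

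Where both arrays were above the floor, the largest loss was that of an eosinophil gene. Prg2, the major basic protein of eosinophil granules, was at 11380, 1110, 334 and 35.8 units, 318-fold lower on day 7 than in fresh marrow. Epx, eosinophil peroxidase, was at least 79.2-fold lower, Hdc, the histamine-making enzyme, at least 43.8-fold, and 12 of 14 genes of the list were lower, with a median of -2.98. Mcpt8, a basophil protease, was at 451, 397, 603 and 75.9 units, with its highest signal on day 5 and its lowest on day 7. Gata2, a factor of mast cells and progenitors, was within 2-fold.

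Red cell genes were lost early. 19 of the 23 measured were lower, none was higher and the median was -3.29. Alas2, the enzyme that starts haem synthesis in red cell precursors, was at 8302, 2.19, 1.77 and 1.71 units, so that it was below the floor from day 4 on and at least 256-fold lower on day 7. Slc4a1, the anion exchanger of the red cell membrane, was at 6536, 1.52, 7.25 and 10.8 units (at least 202-fold lower), and Trim10, a gene of terminal red cell maturation, at least 66.3-fold. Hbb-b2, a β-globin gene read by a probe set that can match related globin RNA, was at least 60.5-fold lower. The probe sets of Hba-a1 and Hba-a2 with a single symbol read 9.82 and 40.3 units in fresh marrow and so say little about α-globin there. Epor, the erythropoietin receptor, and Tfrc, the transferrin receptor, were within 2-fold by the probe sets used. Another probe set of Tfrc had a log2 difference of 1.975. The transferrin receptor control probe sets also read higher on day 7 than on day 1 (91.4 to 375.7, 19.25 to 76.12 and 15.19 to 104.2 units). By the probe set used, Tfrc had its highest signal on day 4 (7794 units).

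Platelet genes held their signal longer. Ppbp, a platelet chemokine precursor, was at 4809, 6360, 1933 and 79.3 units, 60.7-fold lower on day 7, yet higher on day 4 than in fresh marrow. The same order was seen for Gp5 (488, 649.8, 135 and 25.6 units) and Tubb1 (671, 1114, 256 and 33.5 units), a receptor subunit and a tubulin of platelets. In all, 16 of 20 measured genes were lower and none was higher, with a median of -3.33, and 13 of the 20 had their highest signal on day 4. Nfe2, a factor that platelet-forming and red cell precursors need, was at 3353, 451, 135 and 9.87 units and below the floor only on day 7 (at least 103-fold lower). Pf4, platelet factor 4, went against the others with 8628, 10990, 11870 and 8027 units and a log2 difference of -0.10.

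Lymphoid genes were lower as well. Of 26 measured B cell genes 21 were lower and none higher, with a median of -3.51. Cd24a, a surface protein of immature B cells and of other precursors, was at 11430, 3948, 1123 and 252 units (45.3-fold lower). Ighm, the heavy chain of IgM, was at 9088, 4789, 2440 and 848 units (10.7-fold lower), and Rag1, which cuts DNA to assemble receptor genes, was at least 29.1-fold lower. Spib and Pou2af1, transcriptional regulators of B cells, were at least 59.4-fold and 57.5-fold lower. Cd79a, a chain of the B cell receptor complex, was at 196 units in fresh marrow and 4.94 on day 7 (at least 6.04-fold). Blnk and Cd72, which myeloid cells also express, were within 2-fold. Of 12 T and NK cell genes, 7 were lower, among them Nkg7, a protein of cytotoxic granules (at least 23.4-fold).

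Progenitor genes were lower too, but less so as a list. Myb, a factor of dividing blood progenitors, was at 4014, 561, 74.3 and 11.8 units and at least 124-fold lower. Kit, the stem cell factor receptor, was at least 18.2-fold lower and Cd34 at least 6.02-fold. Kitl, which encodes the Kit ligand and is a stromal product, was 8.51-fold higher (206 to 1749 units). Of 19 progenitor genes, 11 were lower (9 with median scaling) and none higher, with a median of -1.13. Over the 9 above the floor on both arrays the median was -0.25. The 8 within 2-fold included Spi1, which encodes PU.1 (log2 difference 0.47), and Lmo2 (0.09).

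**Figure D4:**
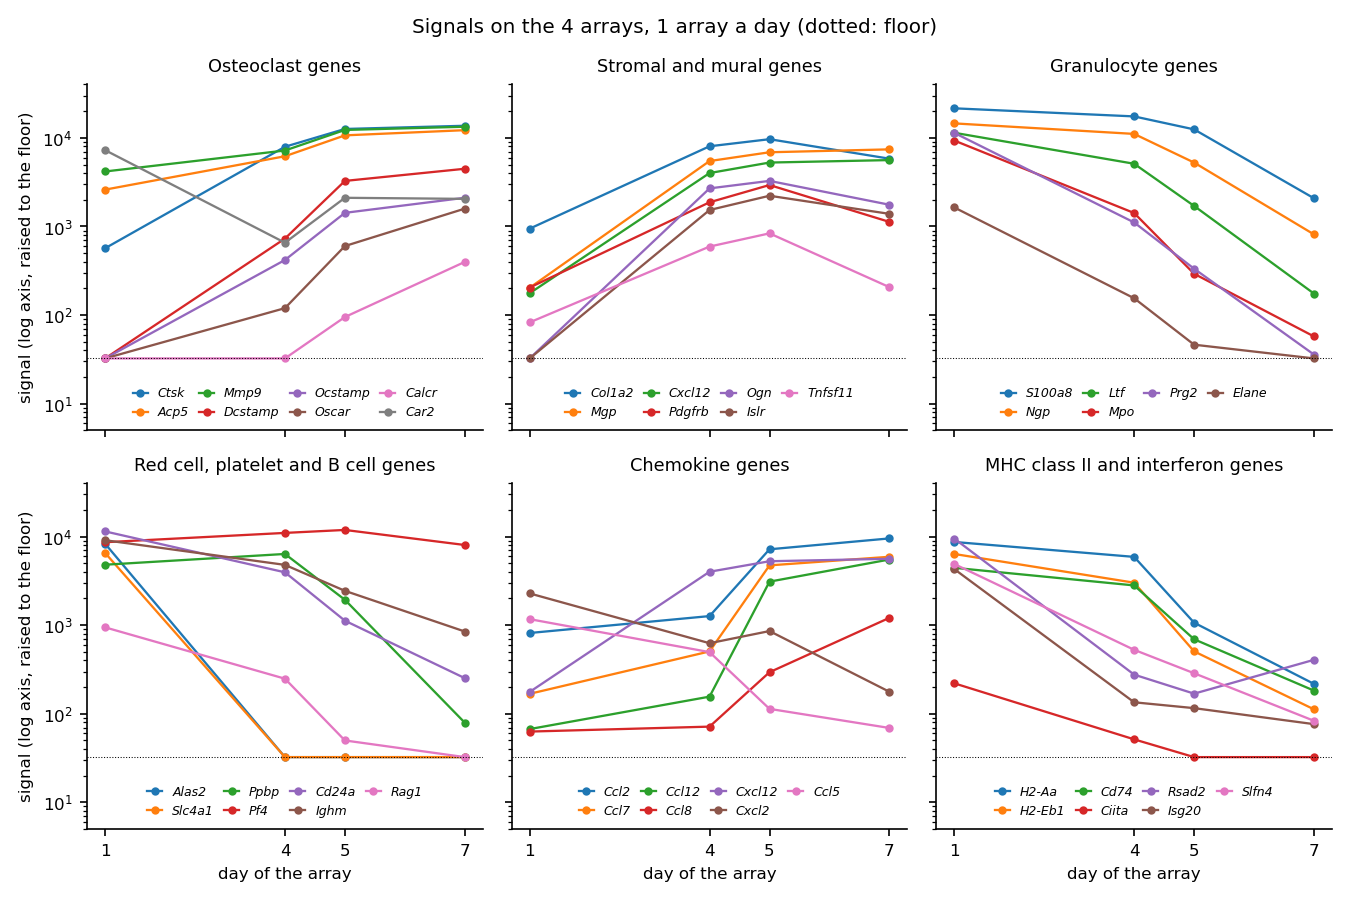
Signals of named genes on the arrays of days 1, 4, 5 and 7 (log axis, 1 array a day, signals under the floor raised to it, dotted line at 32.4 units); the lines join arrays and do not follow a single culture. Ctsk, Acp5 and Mmp9 lie highest on day 7, stromal genes such as Col1a2 and Pdgfrb peak on day 5, Alas2 and Slc4a1 are at the floor by day 4, and S100a8 drops most between day 5 and day 7.

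Stromal and osteoblast genes were the most raised of the cell type lists. Of 32 measured, 25 were higher and 1 (Vcam1, an adhesion protein) was lower, with a median of 2.54. Their summed signal was 11340, 65910, 85100 and 50540 units on days 1, 4, 5 and 7, and 27 of the 32 had their highest signal on day 5. Col1a2, a chain of type I collagen, was at 945, 8034, 9659 and 5820 units (6.16-fold higher on day 7), and Pdgfrb, the PDGF receptor of mural and stromal cells, at 205, 1875, 2936 and 1126 units (5.50-fold). Both were lower on day 7 than on day 5. Cxcl12, the stromal chemokine that holds blood progenitors in marrow, and Mgp did not have this late drop, with Cxcl12 at 176, 4007, 5264 and 5612 units (31.8-fold) and Mgp at 204, 5473, 6877 and 7415 units. Tagln, a smooth muscle protein, was at least 21.7-fold higher and Ogn at 16.5, 2690, 3269 and 1759 units. Of the osteoblast genes, Sp7, the factor osterix, read 40.9 units on day 7 (log2 difference -0.29), and Alpl, alkaline phosphatase, was at 56.6, 182, 249.6 and 77.3 units on days 1, 4, 5 and 7 (0.45), highest on day 5 like most of the list. Endothelial genes did not share the gain: 5 of 15 were lower, among them Pecam1 (6.61-fold), and none was higher. Of 10 adipocyte and lipid storage genes, Adipoq, which encodes adiponectin, was 12.3-fold higher and Cd36, a fatty acid receptor that macrophages also carry, 2.34-fold, while Dgat2, a triglyceride-making enzyme, was 17.2-fold lower.

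Macrophage genes split into a raised and a lost group. Of 26 measured, 9 were higher and 4 lower, with a median of 0.31. Ccr2, the receptor by which inflammatory monocytes leave marrow, was at 3887, 121, 81.6 and 28.4 units (at least 119.8-fold lower), and Cx3cr1, the fractalkine receptor, was 12.2-fold lower. Mrc1, the mannose receptor, was at 1842, 9491, 8955 and 9597 units (5.21-fold higher), and C1qa, a chain of the complement starter C1q, at 2810, 9468, 8975 and 9526 units (3.39-fold). General macrophage genes changed little: Lyz2, lysozyme, had a log2 difference of -0.07, Adgre1, a surface receptor, 0.08, and Cd68, a lysosomal membrane protein, 0.55. Gpnmb, a glycoprotein of osteoclasts and lipid-laden macrophages, was already at 9776 units in fresh marrow and at 12470 on day 7. Folr2, a folate receptor of resident macrophages, was 15.2-fold higher (269, 538, 1663 and 4094 units).

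Clearance genes were higher as a group. Of 21 scavenger and efferocytosis genes 14 were higher and 3 lower, with a median of 1.17. Gas6, which links dying cells to TAM receptors, was at 419, 3237, 1694 and 5177 units (12.4-fold higher), and Mfge8, which links them to integrins, was 10.6-fold higher. The TAM receptor genes Axl and Mertk did not follow, Axl at 2.80-fold lower and Mertk at a log2 difference of -0.44. Of 15 complement genes 10 were higher and 2 lower, with a median of 1.25, and Serping1, the C1 inhibitor, was 15.2-fold higher. Cfp, properdin, had a log2 difference of 1.77 by the probe set used and of -1.30 by another.

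Antigen presentation and interferon genes were lower. The MHC class II list had 13 measured genes, 9 of them lower and none higher, with a median of -3.01. H2-Aa, an MHC class II chain, was at 8685, 5896, 1066 and 217 units (40.0-fold lower) and Cd74, the invariant chain, at 4439, 2808, 693 and 182 units (24.3-fold). Ciita, the regulator that class II genes depend on, was below the floor from day 5 on, at least 6.80-fold lower. Ctss, Lgmn and Ifi30, lysosomal enzymes that process antigen, were within 2-fold. Of 31 interferon response genes 25 were lower and none higher (23 lower with median scaling), with a median of -1.67. Rsad2, the antiviral protein viperin, was at 9488, 276, 169 and 406 units (23.3-fold lower), and Isg20, an RNA exonuclease, was 56.2-fold lower. Rsad2 had lost most of its signal by day 4 and, like Ifi27l2a, an interferon-induced gene at 3941, 501, 414 and 1640 units, was higher on day 7 than on day 5. Bst2, tetherin, was the 1 gene of the list with a positive difference (0.61), within 2-fold.

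Dendritic cell genes and sensors of microbes were lower more often than higher. Of 14 dendritic cell genes 6 were lower and 2 higher (4 higher with median scaling), with a median of -0.41. Over the 9 above the floor on both arrays the median was 0.61. The lower ones included Siglech, a receptor of plasmacytoid dendritic cells (at least 13.9-fold), Cd83 (5.86-fold) and the homing receptor gene Ccr7 (at least 9.25-fold). Fscn1, an actin-bundling protein, was 4.09-fold higher and Mgl2, a lectin, 2.42-fold. Another probe set of Fscn1 had a log2 difference of 0.24. Of 17 toll-like receptors and innate sensors 6 were lower, led by Clec4e (5.47-fold), a lectin for mycobacterial glycolipid, and 1 was higher, Tlr3 (at least 3.08-fold), a sensor of double-stranded RNA. Tlr4, which binds endotoxin, and its partner Ly96 differed by 0.35 and 0.01. Of 15 genes of alternatively activated macrophages 5 were higher and 6 lower, with Arg1, arginase, at 284, 264, 693 and 52.6 units (5.40-fold lower) and Cbr2, a carbonyl reductase, 3.20-fold higher.

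Chemokine and cytokine genes went both ways: of 31, 10 were higher and 9 lower. The higher ones were led by neighbouring genes of monocyte-attracting CC chemokines. Ccl2 was at 816, 1266, 7180 and 9525 units (11.7-fold higher), Ccl7 at 168, 506, 4728 and 5911 (35.2-fold) and Ccl8 at 63.0, 71.6, 294 and 1210 (19.2-fold). Ccl8 was still near its fresh marrow signal on day 4. Il1b, the inflammatory interleukin 1β, was at 2846, 383, 102 and 51.0 units (55.8-fold lower), and Cxcl2, a neutrophil attractant, was 12.9-fold lower. Tnf and Cxcl10 had log2 differences of -0.12 and -0.07. Of 17 factors by which osteoclasts act on bone-forming cells 8 were higher, among them Igf1 (4.53-fold), a growth factor, Cthrc1 (at least 6.32-fold), a secreted collagen triple helix protein, and Sphk1 (3.91-fold), which makes sphingosine 1-phosphate. Sema4d, the semaphorin by which osteoclasts inhibit osteoblasts, had a log2 difference of -0.23. Ccl5, Clcf1 and Vegfa were the 3 lower genes of this list. Only 2 of its 17 genes had their highest signal on day 7, against 7 on day 4 and 6 on day 5. The summed signal of the list was 6105, 13600, 10940 and 9780 units on days 1, 4, 5 and 7. How much of the gain came from stromal RNA was not tested.

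Of 24 metalloproteinase and inhibitor genes 14 were higher and 2 lower, with a median of 1.25. As in the stromal list, most of them (18 of 24) had their highest signal on day 5, and the part of stromal RNA in their gain was not tested. Mmp12, macrophage elastase, was at 356, 6680, 7305 and 5438 units (15.3-fold higher), Mmp2 was 10.7-fold higher and Timp1, a metalloproteinase inhibitor, 5.32-fold, while the neutrophil collagenase Mmp8 was 7.55-fold lower. Of 18 proton pump subunits 5 were higher (Atp6v0d2, Atp6v1h, Atp6v1a, Atp6v1b2 and Atp6v1d) and none was lower, with a median of 0.64, and 16 of the 18 had positive differences. Atp6v1h was at -0.01 on the log2 scale with the mean over its probe sets. Lysosomal genes moved less: 4 of 49 were higher (Ctsk, Arsb, Glb1 and Smpd1), 3 were lower (Ctsh, Dnase2a and Cln3), and the median was 0.17. Arsb, arylsulfatase B, which degrades dermatan sulfate, was at 1737, 1735, 5555 and 6909 units (3.98-fold higher), with the gain after day 4. Of 41 podosome and actin genes 8 were higher and 3 lower, with a median of 0.06 that was -0.12 with quantile normalization. Bcar1 (p130Cas, 6.23-fold), an adaptor of Src, Myo10 (5.23-fold), a filopodial motor, and Myo1e (4.78-fold) led the higher ones, and Zyx, a protein of focal contacts, was 5.71-fold lower. The filament proteins Actr3, Arpc2 and Cfl1 differed by -0.18, -0.02 and 0.06.

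Guidance and adhesion genes went in different directions. Of 24 semaphorins, ephrins and their receptors 7 were higher and 4 lower, with a median of 0.39. Over all genes counted, 12.7% were higher and 16.2% lower, so the lower share was near that over all genes. Nrp2 and Nrp1, the neuropilins that bind class 3 semaphorins, were 6.32-fold and 2.02-fold higher, and Efnb2, an ephrin through which osteoclasts and osteoblasts meet, was at least 5.80-fold higher. Other probe sets of Nrp1 differed by -1.56 to 1.18 and that of Efnb2 by -0.07. Sema4a was 2.59-fold lower. Of 17 integrin subunits 7 were lower and 2 higher, with a median of -0.76. Itgal, a subunit of the leukocyte integrin LFA-1, was at 2547, 709.9, 452 and 214 units (11.9-fold lower), while Itga8, a subunit of stromal and smooth muscle cells, was at 23.2, 257, 468 and 693 units (at least 21.4-fold higher) and Itgb1, the common β1 subunit, differed by 0.47.

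Mitochondrial genes were modestly but broadly higher. None of 41 respiratory chain and ATP synthase genes was lower, 12 were at least 2-fold higher (20 with median scaling), and all 41 had positive differences, with a median of 0.85. Atp5o, an ATP synthase subunit, was at 2535, 5097, 6432 and 7403 units (2.92-fold higher), and Uqcrfs1, the Rieske protein of complex III, was 2.66-fold higher. Of 19 citrate cycle genes 10 were higher (17 with median scaling) and all were positive, with a median of 1.03. Idh3a, the regulated isocitrate dehydrogenase subunit, was at 1251, 1990, 3726 and 3984 units (3.18-fold higher). Ppargc1b (PGC-1β), a coactivator of mitochondrial biogenesis in osteoclasts, was at 226, 529, 850.3 and 814 units (3.60-fold) and was the only 1 of 15 biogenesis regulators past 2-fold. The families of mitochondrial ribosomal proteins were also among the families with the highest medians, Mrps with 11 of 29 higher and Mrpl with 18 of 47, and no member of either lower. Cytosolic ribosomal proteins were close to 0, with a median of 0.15 and 20 of 23 genes within 2-fold.

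**Figure D5:**
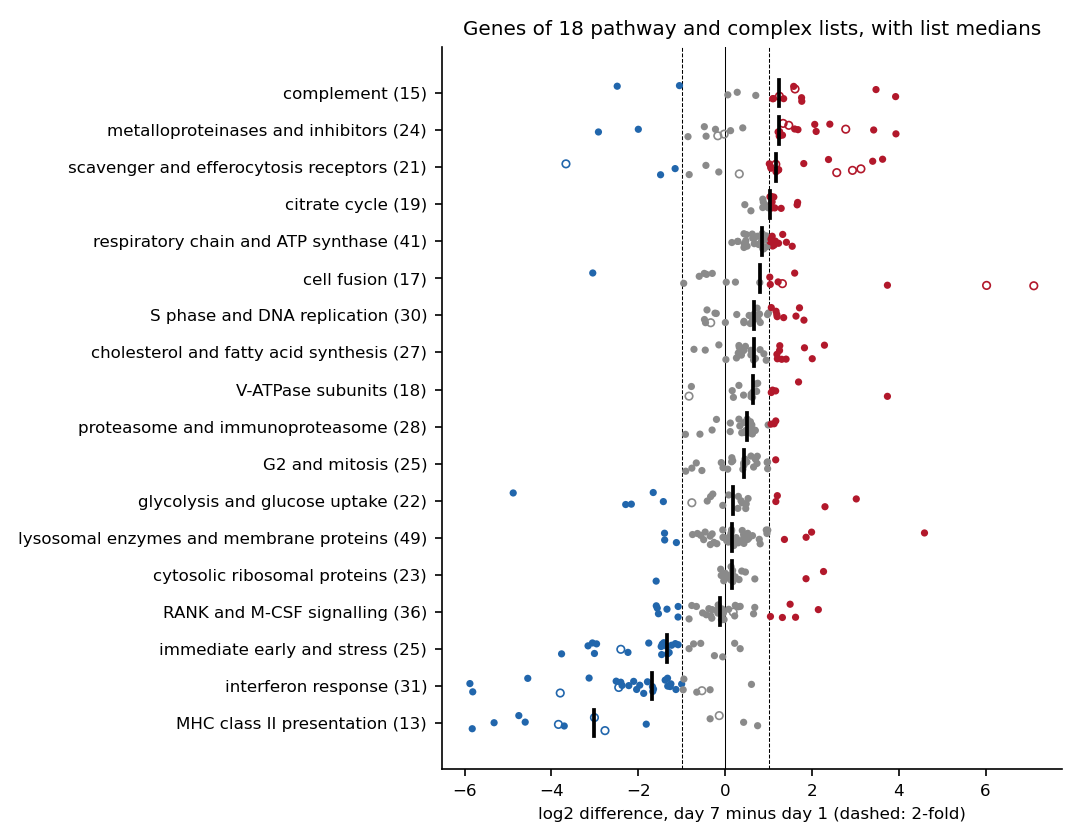
Log2 difference of day 7 minus day 1 (horizontal) for the genes of 18 pathway and complex lists, 1 point a gene, drawn as in the plot of cell type lists. All respiratory chain and citrate cycle genes lie right of 0 in a narrow band (medians 0.85 and 1.03), while MHC class II (-3.01), interferon (-1.67) and immediate early genes (-1.34) lie to the left.

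Other metabolic lists differed from one another. Over all genes counted, 12.7% were higher and 16.2% lower. Of 22 glycolysis and glucose uptake genes 4 were higher and 5 lower, not far from these shares. Slc2a3, the high-affinity glucose transporter of blood cells, was at 5482, 1904, 740.2 and 186 units (29.4-fold lower), and Slc2a1, the general one, had a log2 difference of 0.37. Aldoc, an aldolase isoenzyme, was at 117, 214, 279.6 and 949 units (8.12-fold higher), and Pdk1, a kinase that inhibits pyruvate dehydrogenase, was 4.93-fold higher. Of 27 cholesterol and fatty acid synthesis genes 9 were higher and none lower, with a median of 0.66. Scd2, a fatty acid desaturase, was at 1155, 2181, 3145 and 5640 units (4.88-fold higher), and Lss, which closes the sterol rings, was 4.02-fold higher. Of 16 genes of macrophage lipid handling 6 were lower and 2 higher, with a median of -0.59. Apoc2, a lipoprotein that activates lipoprotein lipase, was 16.4-fold lower. Of 14 iron genes 3 were higher, Cp (ceruloplasmin, 4.25-fold) and the ferrireductase genes Steap4 (3.67-fold) and Steap3 (at least 3.27-fold). The metallothionein genes Mt2 and Mt1, which bind zinc, were 11.2-fold and 2.88-fold higher, the only higher ones of 19 antioxidant genes, of which Slc7a11, the cystine transporter, and Gsr, glutathione reductase, were lower (3.57-fold and 2.80-fold). Of 11 haem synthesis genes 4 were lower and none higher, Alas2 and Fech (6.09-fold) among them, while Alas1, the enzyme form of all other cells, differed by -0.54. Of 26 genes of amino acid synthesis and tRNA charging 6 were higher and 3 lower. Psat1, an enzyme of serine synthesis, was 2.87-fold higher, and Phgdh, the enzyme before it in that pathway, 2.81-fold lower, with other probe sets from -1.10 to 0.23. Of 28 proteasome genes 3 were higher (Psmb7, Psmb6 and Psmd12), a share near that over all genes, and none was lower. The immunoproteasome genes Psmb9 and Psmb8 differed by -0.91 and -0.20.

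Cell cycle genes were higher or within 2-fold, apart from some regulators of the first gap phase. Of 30 S phase genes 8 were higher and none lower (median 0.66), and of 25 mitosis genes 1 was higher, the kinase gene Aurka (2.24-fold), and none was lower (median 0.43), while 19 of the 25 had their highest signal on day 7. Mki67, the proliferation marker, was at 4312, 1645, 2050 and 2537 units, with its lowest signal on day 4 and a log2 difference of -0.77. Ccnd1, cyclin D1, was at 196, 1121, 3885 and 4514 units (23.0-fold higher), whereas Ccnd3, cyclin D3, was 6.00-fold lower and Ccnd2 had a log2 difference of 0.81. The CDK inhibitor genes Cdkn2b and Cdkn2a, both below the floor in fresh marrow, were at least 13.7-fold and 7.27-fold higher, Cdkn1a (p21) was 3.15-fold higher, and Cdkn1b (p27) was 3.47-fold lower. Myc, a driver of growth, had a log2 difference of 0.82 with its highest signal on day 5 (977 units). In the immediate early and stress list, 18 of 25 genes were lower, none was higher and the median was -1.34. Nr4a1, an early response receptor, was 13.6-fold lower, Btg2, an antiproliferative early gene, 8.05-fold lower, while Fos and Jun had log2 differences of 0.22 and 0.35. Of 16 genes of the BCL2 family of apoptosis regulators 14 were within 2-fold and none was higher. The 2 lower ones, a share near that over all genes (16.2%), were Bcl2l11 (Bim, 2.86-fold) and Bmf (2.42-fold), both of which promote cell death. Other probe sets of Bcl2l11 differed by -1.61 to 1.22.

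Vitamin D3 was present throughout the culture. Vdr, its receptor, was at 76.4, 348, 243 and 96.0 units, highest on day 4, with a log2 difference of 0.33 on day 7. Cyp24a1, the enzyme that degrades vitamin D3 and a direct target of its receptor, was at 605, 3559, 3690 and 1861 units (3.08-fold higher on day 7). Of the 13 measured genes that respond to vitamin D, 4 were higher and 5 lower, and among the lower was Camp (48.3-fold), a neutrophil granule gene.

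Gene families named alike gave a view that did not rest on chosen functions. Of 192 families with at least 8 measured genes, 99 had a median above 0. The lowest medians were those of chromatin regulators: Arid genes (subunits of remodelling complexes and DNA-binding proteins) at -1.39 with 7 of 9 lower, Kmt genes (lysine methyltransferases) at -1.36 with 6 of 8 lower, Chd genes (chromodomain helicases) at -1.04 with 6 of 9 lower and Setd genes at -0.96 with 4 of 8 lower. With median scaling the first 3 were at -1.25, -1.23 and -0.90. Kmt2a, a methyltransferase of blood progenitors, was at 486, 209, 156 and 103 units (4.71-fold lower), Arid1a, a remodelling subunit, at 2044, 1246, 1162 and 982 units (2.08-fold lower) and Chd7 at 266, 97.2, 97.0 and 65.2 units (4.07-fold lower). The highest medians were those of the aldo-keto reductases (Akr, 1.64, 6 of 9 higher, led by Akr1c18 at 4.19), the collagens (Col, 1.22, 12 of 23 higher) and the clade B serpins (Serpinb, 1.13). Collagen genes belong to the stromal list as well, and these families kept the sign of their medians with median scaling.

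Some of the differences fell on neighbouring genes. With genes placed in the order of the RefSeq table (11949 of them, assembly GRCm38.p6), there were 10 runs of 4 or more adjacent higher genes and 23 such runs of lower genes. The longest higher run was Serpinb9b, Serpinb6e, Serpinb6a, 1110046J04Rik, Nqo2, Bphl and Tubb2a, and the next was Myo1d, Tmem98, Ccl2, Ccl7, Ccl12 and Ccl8, which holds the chemokines described above. The call of Myo1d, an osteoclast-list gene, rests on the probe set used: that set is designed to match several transcripts, and the other set gave a log2 difference of -1.57. A further run was Net1, Akr1c18, Akr1c13, Akr1c12 and Akr1e1. The lower runs included the interferon-induced Trim genes (Trim34a, Trim5, Trim12a, Trim12c, Trim30a and Trim30d, with Fam160a2) and the Ifit cluster (Ifit2, Ifit3, Ifit1bl1, Ifit1bl2 and Ifit1). Members of such clusters are related copies, and probe sets of 1 copy can pick up RNA of another, so their values are not independent.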

How the data were processed

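RNA of 4 cell samples was hybridised to 1 Affymetrix mouse array each. The values are linear intensities per probe set, deposited by the authors, who made them with MAS5 in GCOS 1.4 per the submitters' processing notes; the target they were scaled to is unknown. After 64 control probe sets were dropped, the median of the other 45037 over the 4 arrays (32.4 units) was set as the lowest signal, and genes were read from the single-symbol probe set (34945; 932 had several symbols and 9160 none) with the highest mean signal. Calls were made at a 2-fold difference, a size and not a test. The calling was tested on simulated data with changes beyond the threshold, changed genes starting well above the floor and less noise than the spiked controls. That simulation cannot speak for genes near the threshold or the floor. A fold against a group under the floor is a lower bound.

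The comparison and the gene lists were chosen with earlier results of these data known. Named genes were the largest differences, list members with the largest differences, a set of known osteoclast and marrow genes, families of 8 or more genes and runs of neighbours; others named as examples were chosen after their values were seen. Promoters (RefSeq, GRCm38.p6, 250 bases before and 50 after the start) were searched on both strands for the motifs spelled in the report, and also for the E-box CACGTG, the M-box TCATGTG, the ISRE-like motif GAAANNGAA, the TATA box TATAAA, the CCAAT box and, by name, the E2F motif. Alternatives changed the floor, the scaling, the probe set rule and the probe set type, 9 in all. With 1 array a day the precision is limited by their number, and no spread between samples can be given. Python 3.11.15, numpy 2.4.6, pandas 2.3.3 and matplotlib 3.10.9 were used.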

Additional observations from a re-analysis of the deposited data

How the results depend on the processing

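The counts moved by over 1.5 times only with the floor raised to the 75th percentile (254 units), where 737 genes were higher and 951 lower. The share of higher genes among those called moved by over 10 percentage points only with quantile normalization, to 56.2%. Of 1516 higher and 1939 lower genes, 396 and 611 were also called with each of the 9 alternatives. A gene with no value under an alternative is not in these counts, so Acp5 and Alas2 are left out although called wherever they had a value. No list median past 2-fold turned its direction, and of 323 genes named by the rule or in the text 3 did. With the mean over its probe sets Atp6v1h was at -0.011 and Snx10 at -0.42 on the log2 scale, and without probe sets that match several transcripts Myo1d was at -1.57. Of 459 list medians under the alternatives, 432 stayed within the pooled SD of probe sets of 1 gene (0.53) and 27 moved by more. The medians of RANK and M-CSF signalling, podosome, adipocyte, alternatively activated macrophage, antioxidant and BCL2 family genes lay so near 0 that scaling turned their sign. Leaving out a sample was not possible with 1 array per day. No paired analysis was possible because each day has 1 array and the labels carry no replicate numbers. Signals near the floor limit what can be seen: 6226 genes were under it on both arrays.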

Other observations

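Probe sets that name no single gene (no symbol or several) were counted apart. Of 3581 measured, 182 (5.08%) were at least 2-fold higher on day 7 and 1223 (34.2%) at least 2-fold lower, against 12.7% and 16.2% of the genes. The control probe sets for 18S ribosomal RNA read 2.24-, 1.90- and 2.37-fold higher on day 7 than on day 1.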
